A study of Mus musculus with 29 samples.

Results

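The transforming growth factor-beta (TGF-beta) and bone morphogenetic protein (BMP) pathway was followed through 51 genes, given by name and matched by Ensembl ID to 51 of the 56953 features measured in cultured adipose stromal cells. They comprise 16 ligand genes, 6 genes for latency and matrix proteins, 6 for secreted antagonists, 12 for receptors and co-receptors, 7 for SMADs and 4 for ID proteins. Crude stromal vascular fraction (SVF), the non-adipocyte cells released by digesting fat, came from inguinal (iWAT, subcutaneous) and perigonadal (pgWAT, visceral) white adipose tissue of adult C57BL6/J mice. Every culture was grown in PM1 medium with 1 nM basic FGF for 4 days in a 96-well plate, so that no group without the growth factor is part of the design. The 29 libraries were labelled iWAT male (n = 10), iWAT female (n = 9), pgWAT male (n = 4) and pgWAT female (n = 6).

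The study describes the libraries as technical wells of 2 (pgWAT) or 3 (iWAT) independent experiments, and the labels do not tie a library to an experiment. All p-values therefore measure the spread between wells. The libraries held 315316 to 1102234 counts, and a gene with 0 counts may have had up to 2.58 to 9.76 CPM (the count scaled to a common library total), the level of 3 counts, depending on the library (counting error only). All 19 iWAT libraries carried Xist and Y-linked transcripts as their labelled sex would have them, whereas 4 of 10 pgWAT libraries went against their label (pgWAT male 2 and 4, pgWAT female 2 and 3) and 1 carried both (pgWAT female 1). Groups are kept as labelled, and the study's methods give other group sizes for this experiment. Fibroblast markers dominated, with a summed 9054 ± 1843 CPM in iWAT (SD, n = 19) and 16143 ± 4213 CPM in pgWAT (SD, n = 10), and all 6 of them were detected in each depot. The mature adipocyte markers Adipoq, Plin1, Lep and Cidec summed to 11.2 ± 12.6 CPM in iWAT (SD, n = 19) and 7.48 ± 8.37 CPM in pgWAT (SD, n = 10).

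In this pathway, dimeric ligands bind pairs of type I and type II serine/threonine kinase receptors, with co-receptors such as endoglin and betaglycan presenting some of the ligands. Activated type I receptors phosphorylate receptor-regulated SMADs, which enter the nucleus with SMAD4. TGF-beta and activin receptors act mainly through SMAD2 and SMAD3, and BMP receptors through SMAD1 and SMAD5. The ID genes are classical targets of BMP signalling, SMAD6 and SMAD7 are feedback inhibitors, and secreted proteins such as noggin, gremlin and follistatin trap ligands outside the cell. In adipose tissue, TGF-beta and activin are known to restrain the differentiation of progenitors into adipocytes, and several BMPs promote their commitment to that lineage.

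Promoter sequence is shown for 4 members on which the results below turn: Ltbp2 and Tgfbr2, which were called both between depots and between the sexes of iWAT, Grem1, the member with the largest fall in pgWAT, and Id3, the only member whose sex difference was called as differing between depots. Each line holds the 250 bases before the RefSeq transcription start in GRCm38.p6, written 5' to 3' on the gene's strand. Capitals mark CAGAC or its reverse complement GTCTG, the short SMAD-binding motif, and GGCGCC, a GC-rich motif of BMP-responsive elements, which is its own reverse complement.
Ltbp2, chr12:84876492-84876741, minus strand: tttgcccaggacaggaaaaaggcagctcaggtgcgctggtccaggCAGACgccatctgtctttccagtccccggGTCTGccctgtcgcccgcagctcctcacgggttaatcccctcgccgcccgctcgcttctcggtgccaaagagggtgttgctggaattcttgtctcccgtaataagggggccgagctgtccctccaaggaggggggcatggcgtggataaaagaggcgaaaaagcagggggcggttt
Grem1, chr2:113758649-113758898, minus strand: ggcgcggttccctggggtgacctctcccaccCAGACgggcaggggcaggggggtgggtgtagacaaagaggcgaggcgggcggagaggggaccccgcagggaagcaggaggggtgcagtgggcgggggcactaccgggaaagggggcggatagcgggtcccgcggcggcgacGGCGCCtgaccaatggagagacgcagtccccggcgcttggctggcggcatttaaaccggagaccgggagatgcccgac
Tgfbr2, chr9:116175364-116175613, minus strand: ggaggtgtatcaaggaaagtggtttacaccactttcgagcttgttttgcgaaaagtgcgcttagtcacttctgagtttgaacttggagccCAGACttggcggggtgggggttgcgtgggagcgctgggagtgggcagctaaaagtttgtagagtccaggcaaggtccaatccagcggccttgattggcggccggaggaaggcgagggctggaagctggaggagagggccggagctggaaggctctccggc
Id3, chr4:136143572-136143821, plus strand: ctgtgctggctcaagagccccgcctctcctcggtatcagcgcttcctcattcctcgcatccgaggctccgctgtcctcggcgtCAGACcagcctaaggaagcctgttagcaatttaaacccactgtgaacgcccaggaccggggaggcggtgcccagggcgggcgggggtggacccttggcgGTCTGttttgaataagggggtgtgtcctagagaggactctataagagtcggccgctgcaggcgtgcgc

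CAGAC occurred on either strand in 42.2% of the 32841 mouse promoter windows of this length, and GGCGCC in 9.59%. The motifs share no overlapping position in the windows shown. Id3 and Ltbp2 each held 2 copies of CAGAC, Tgfbr2 held 1, and Grem1 held 1 copy of each motif. Of the 35 members with a window in the RefSeq table, 19 held CAGAC and 9 held GGCGCC in at least one of their windows. These members had 44 windows together, so counts per member cannot be set against the shares per window. A match describes letters only, and no binding was measured.

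Levels were compared between genes per kilobase of exon, which presumes that counts grow with exon length. Follistatin-like 1 (Fstl1) and Id3 had the highest mean levels in both depots, at 261 ± 32.8 and 242 ± 117 CPM per kilobase in iWAT (SD, n = 19) and 357 ± 47.3 and 278 ± 33.1 CPM per kilobase in pgWAT (SD, n = 10). Bmp1, which despite its name encodes a procollagen protease that also cleaves the BMP antagonist chordin, followed with 78.9 ± 20.6 and 109 ± 21.8 CPM per kilobase. In CPM not divided by length, Bmp1 (401 ± 80.3 CPM) lay above Id3 (355 ± 42.3 CPM) in pgWAT (SD, n = 10). The most abundant ligand transcript encoded the activin A subunit Inhba, at 44.8 ± 25.5 CPM per kilobase in iWAT and 44.5 ± 16.2 in pgWAT.

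Among the 3 TGF-beta ligands, Tgfb3 made up 96.8% ± 2.9 of the summed level per kilobase in iWAT (SD, n = 19) and 93.4% ± 5.29 in pgWAT (SD, n = 10). Tgfb1 gave 14 counts over all 29 libraries and Tgfb2 gave 54, against 1298 for Tgfb3.

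**Figure D1:**
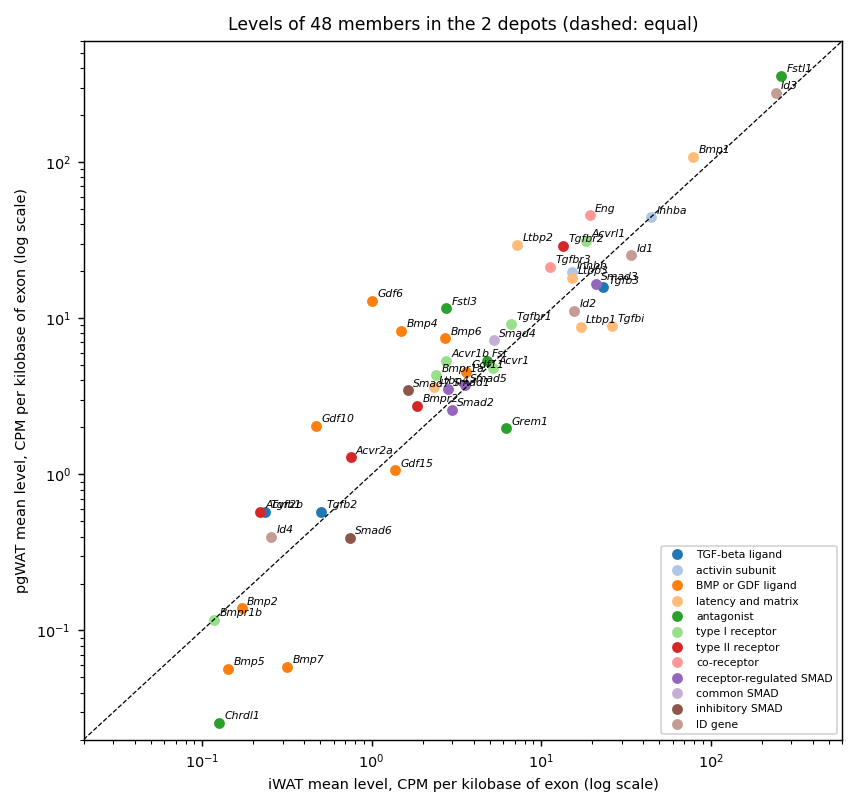
Mean level of 48 members in iWAT (x axis, n = 19) against pgWAT (y axis, n = 10), in CPM per kilobase of exon on log axes, coloured by role. Points above the dashed line had a higher mean level in pgWAT, as for Gdf6, Bmp4 and Ltbp2, and points below it a lower one, as for Grem1, Tgfbi and Ltbp1. Nog, Bmp3 and Gdf5, at 0 counts in at least one depot, are not drawn.

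The main question was how cultures of the depots differed. Of the 51 members, 34 passed the filter on low counts, and 21 of these 34 (61.8%) were called between pgWAT and iWAT (FDR threshold of 0.05 over all 8853 genes tested). Across all tested genes 38.1% were called, so the depots differed broadly. Higher levels in pgWAT were called for 17 members (50%, against 20.1% of all genes) and lower levels for 4 (11.8%, against 17.9%). The members were chosen with earlier results of these data known. These shares, and those of the contrasts below, therefore do not test the pathway as a whole. The median log2 fold change of the 34 members was 0.40, and that of all tested genes was 0.0082. Receptors and co-receptors stood on one side, with 8 of 9 tested genes higher and 0 lower, while 5 of 6 tested SMADs were not called. Being bulk cultures, these data cannot tell fewer cells of a type from less RNA per cell.

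**Figure D2:**
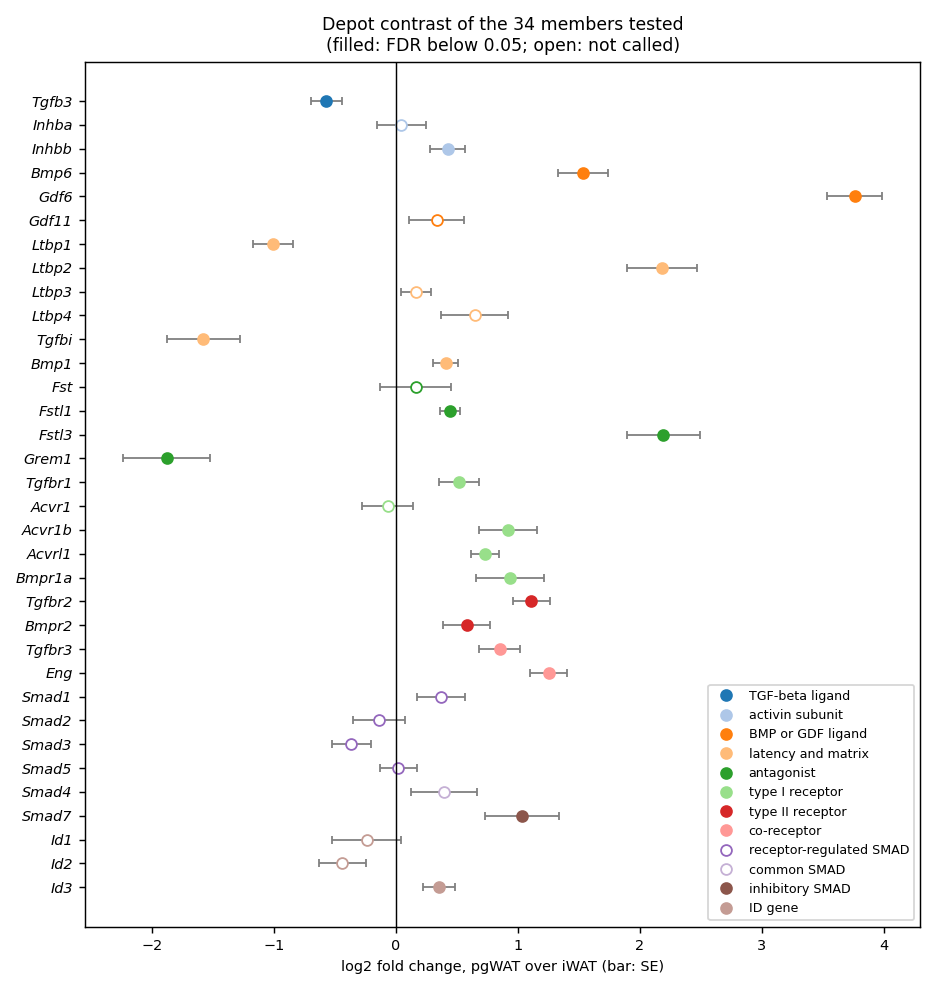
Log2 fold change of pgWAT over iWAT for the 34 members tested, with its SE (bars), ordered and coloured by role. Filled points were called and open points were not. The called receptors and co-receptors lie right of 0, from 0.51 (Tgfbr1) to 1.25 (Eng), and Gdf6 lies farthest right at 3.76.

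Among ligands, the depots differed most for Gdf6, a BMP-family ligand best known from joint and skeletal patterning. It ranged from 0 to 10.5 CPM in iWAT (median 2.16, n = 19) and from 34.7 to 60 CPM in pgWAT (median 44.9, n = 10). Every pgWAT library lay above every iWAT library, which held for 1.47% of all tested genes and, among the members, for Gdf6 alone. No iWAT library reached the level set by the filter on low counts, so Gdf6 was tested only because of its pgWAT libraries. The lack of overlap is therefore no separate support for the difference. Bmp6 and Fstl3 likewise passed the filter through their pgWAT libraries. The Gdf6 fold change was 13.5 (log2 3.76 ± 0.23 SE, edgeR adjusted p = 8.35e-15). Bmp6, a BMP ligand also known as the liver's signal in iron homeostasis, ranged from 2.99 to 15.2 CPM in iWAT (median 10.3) and from 15.0 to 41.5 CPM in pgWAT (median 26.0), a log2 fold change of 1.53 ± 0.20 (adjusted p = 2.98e-07) with the 2 ranges touching at their ends. The Bmp6 gene overlaps exons of Txndc5 on the other strand, and without a stated strand setting reads in the overlap cannot be told apart.

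The only TGF-beta ligand that could be tested went the other way. Tgfb3 ranged from 51.9 to 104 CPM in iWAT (median 78.5) and from 40.3 to 64.0 CPM in pgWAT (median 54.4), and all 10 pgWAT libraries lay below the iWAT mean of 78.6 ± 17.1 CPM (log2 fold change -0.57 ± 0.13, adjusted p = 0.000424). The call was lost with library plate column as a factor (adjusted p = 0.0512), and within single columns the log2 fold change was -0.21 (column 8, adjusted p = 0.584) and -0.12 (column 9, adjusted p = 0.792). The activin subunit Inhbb rose by 0.42 ± 0.14 on the log2 scale (64.6 ± 14.2 CPM in iWAT, SD, n = 19, and 83.8 ± 27.2 in pgWAT, SD, n = 10; adjusted p = 0.0165). This call rested on pgWAT male 4, the highest library at 138 CPM (adjusted p = 0.169 without it). Inhba (0.04 ± 0.20, adjusted p = 0.891) and Gdf11 (0.33 ± 0.22, adjusted p = 0.256) were not called over all libraries. Inhba was called higher in pgWAT within plate column 8 (329, 369 and 449 CPM against 205, 217 and 234 CPM in iWAT female; 0.78 ± 0.15, adjusted p = 0.000908) and within column 9 (296 and 379 CPM against 151, 152 and 156 CPM in iWAT male; 1.14 ± 0.17, adjusted p = 0.000141). The iWAT female library of column 9, outside that contrast, was at 738 CPM. From pgWAT, both column contrasts used the highest Inhba libraries alone (pgWAT female 4, 5 and 6, pgWAT male 2 and 4). The remaining pgWAT libraries lay between 130 and 285 CPM.

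Among the 6 latency and matrix genes 2 rose and 2 fell. Ltbp2, a microfibril-associated member of the latent TGF-beta binding protein family that does not itself bind latent TGF-beta, rose 4.55-fold in pgWAT (log2 2.18 ± 0.29, adjusted p = 2.71e-07). Its iWAT libraries ranged from 19.0 to 126 CPM (median 35.3) and its pgWAT libraries from 48.2 to 430 CPM (median 154). The pgWAT values fell into a low and a high set. The 5 lowest, 48.2 and 65.7 CPM in pgWAT male 4 and 2 and 60.8, 74.7 and 81.3 CPM in pgWAT female 5, 4 and 6, came from the pgWAT libraries that carried Xist counts and were not marked as carrying both signals. The remaining 5 lay between 227 and 430 CPM. Within plate column 8 (pgWAT female against iWAT female) the log2 fold change was 0.54 ± 0.23 (adjusted p = 0.133), and within column 9 (pgWAT male against iWAT male) it was 0.59 ± 0.28 (adjusted p = 0.144), and the pgWAT libraries these contrasts used are the 5 low ones. Column 8 also held a high pgWAT library, pgWAT male 1 (347 CPM), with no iWAT male library in that column to compare it with. Without the 5 pgWAT libraries that did not meet their sex label it was 1.9 ± 0.19 (adjusted p = 2.47e-09).

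Ltbp1, which covalently binds latent TGF-beta and anchors it to fibrillin, fell by 1.01 ± 0.16 on the log2 scale (adjusted p = 7.38e-06). It ranged from 73.5 to 181 CPM in iWAT (median 119) and from 32.1 to 92.5 CPM in pgWAT (median 62.4), and all 10 pgWAT libraries lay below the iWAT mean. Tgfbi, a secreted adhesion protein named for its induction by TGF-beta, fell by 1.58 ± 0.30 (adjusted p = 6.44e-05). Its iWAT libraries ranged from 27.4 to 107 CPM (median 72.4) and its pgWAT libraries from 0 to 58.6 CPM (median 20.3), again with all 10 below the iWAT mean. The protease Bmp1 rose by 0.41 ± 0.10 (291 ± 75.8 CPM in iWAT and 401 ± 80.3 in pgWAT, adjusted p = 0.00169), although its log2 fold change was 0.11 ± 0.13 within plate column 8 (adjusted p = 0.641). Ltbp3 (0.16 ± 0.12) and Ltbp4 (0.65 ± 0.27, adjusted p = 0.0613) were not called.

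Of the secreted antagonists, Grem1, which binds BMP2, BMP4 and BMP7, fell 3.67-fold, or by 1.88 ± 0.36 on the log2 scale (adjusted p = 7.32e-05). It ranged from 11.5 to 44.3 CPM in iWAT (median 27.2) and from 0 to 22.8 CPM in pgWAT (median 7.37), with 37 counts in the 10 pgWAT libraries together. Fstl3, an activin-binding follistatin relative, moved the opposite way, from 5.37 ± 4.28 CPM in iWAT (SD, n = 19) to 22.6 ± 9.72 CPM in pgWAT (SD, n = 10; log2 fold change 2.19 ± 0.30, adjusted p = 4.67e-07). Fstl1 rose by 0.44 ± 0.08 (988 ± 124 against 1351 ± 179 CPM, adjusted p = 5.95e-05). Follistatin itself (Fst) was not called (0.16 ± 0.29, adjusted p = 0.705).

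**Figure D3:**
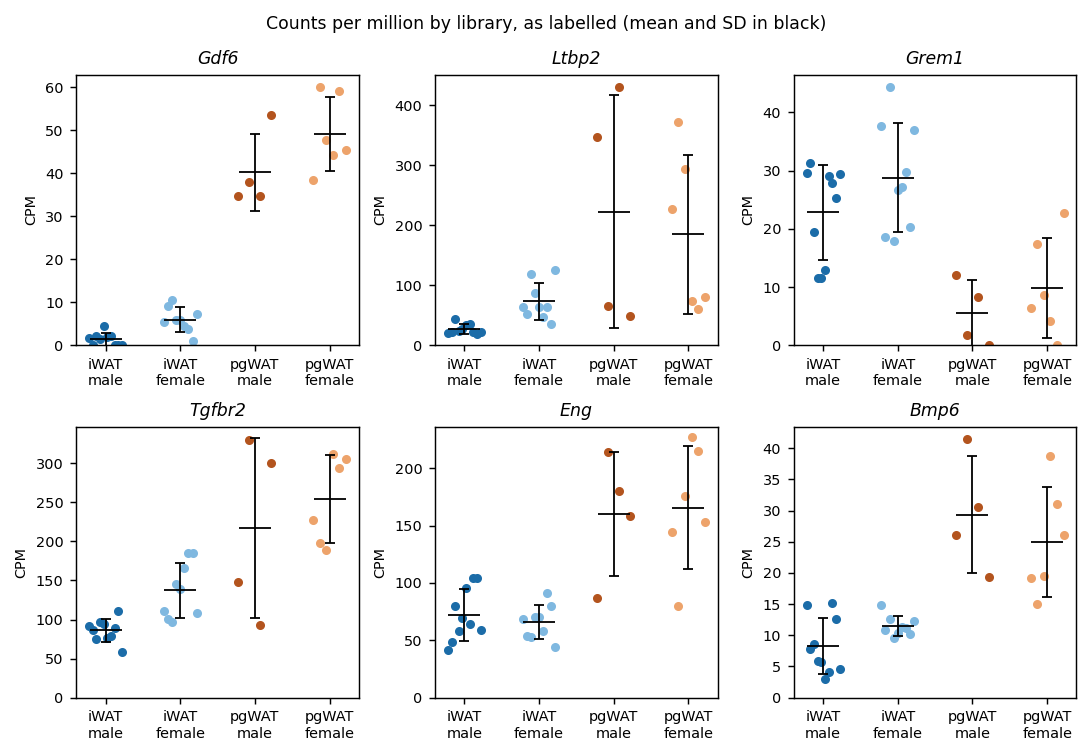
CPM of 6 members called between depots, 1 point per library in the 4 groups as labelled, with the group mean and SD in black. Gdf6, Bmp6 and Eng are higher in both pgWAT groups, Grem1 is lower in both, and the pgWAT libraries of Ltbp2 fall into a low set of at most 81.3 CPM and a high set of at least 227 CPM.

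Of the 12 receptor and co-receptor genes, 9 could be tested and 8 rose. The TGF-beta type II receptor Tgfbr2, which starts TGF-beta signalling by binding the ligand, ranged from 58.7 to 185 CPM in iWAT (median 97.4) and from 93.0 to 330 CPM in pgWAT (median 260), a 2.16-fold rise (log2 1.11 ± 0.15, adjusted p = 2.98e-07). Its highest pgWAT values, 293 to 330 CPM, were in pgWAT male 2 and 4 and pgWAT female 4, 5 and 6, the low set of Ltbp2. The remaining pgWAT libraries lay between 93.0 and 227 CPM. From pgWAT, the contrasts within plate columns 8 and 9 used the high libraries of Tgfbr2 alone. Endoglin (Eng), a co-receptor abundant in endothelium and mesenchymal stromal cells, ranged from 41.2 to 105 CPM in iWAT (median 68.7) and from 80.0 to 227 CPM in pgWAT (median 167), a 2.38-fold rise (log2 1.25 ± 0.15, adjusted p = 5.5e-08). The depots overlapped for both genes, and 9 and 10 of the 10 pgWAT libraries lay above the iWAT mean of Tgfbr2 and Eng. The Eng gene overlaps exons of Fpgs on the other strand.

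Betaglycan (Tgfbr3), the co-receptor that presents TGF-beta2, rose by 0.85 ± 0.17 (69 ± 22 CPM in iWAT and 130 ± 36.7 in pgWAT, adjusted p = 0.000114). Acvrl1, the type I receptor that pairs with endoglin for BMP9 and BMP10, rose by 0.73 ± 0.12 (70.1 ± 16.0 and 119 ± 20.6 CPM, adjusted p = 5.26e-06) and was higher than the iWAT mean in all 10 pgWAT libraries. Tgfbr1, the type I partner of Tgfbr2, rose by 0.51 ± 0.16 (42.7 ± 11.1 and 59.2 ± 21.6 CPM, adjusted p = 0.0133). Leaving out pgWAT male 2 (adjusted p = 0.0548) or pgWAT female 4 (adjusted p = 0.0583) ended that call. Tgfbr1 was at 61.8 to 89.9 CPM in pgWAT male 2 and 4 and pgWAT female 4, 5 and 6, the high set of Tgfbr2. The remaining pgWAT libraries lay between 32.5 and 53.8 CPM, within the iWAT range of 21.6 to 61.3 CPM.

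Acvr1b, the activin type I receptor, ranged from 4.94 to 24.9 CPM in iWAT (median 11.5) and from 13.0 to 43.4 CPM in pgWAT (median 19.6), a log2 fold change of 0.91 ± 0.24 (adjusted p = 0.00259). Bmpr1a, a type I receptor for BMP2 and BMP4, ranged from 0 to 32.1 CPM in iWAT (median 14.9) and from 9.60 to 45.5 CPM in pgWAT (median 25.5; 0.94 ± 0.28, adjusted p = 0.00798). The BMP type II receptor Bmpr2 rose by 0.58 ± 0.19 (24.0 ± 7.72 and 35.4 ± 14.8 CPM, adjusted p = 0.0168). Without the 5 pgWAT libraries that did not meet their sex label, Acvr1b (0.33 ± 0.29, adjusted p = 0.448) and Bmpr2 (0.49 ± 0.24, adjusted p = 0.141) were no longer called, and Bmpr1a lost its call with plate column as a factor (adjusted p = 0.0879). Bmpr2 was also lost on leaving out pgWAT male 2 (adjusted p = 0.0573), pgWAT male 4 (0.0515) or pgWAT female 5 (0.0776). Acvr1, a BMP type I receptor, was the receptor tested that was not called (-0.07 ± 0.21, adjusted p = 0.823).

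Downstream of the receptors few members were called. None of the 4 receptor-regulated SMADs was called, their log2 fold changes running from -0.37 (Smad3, 107 ± 28.3 CPM in iWAT and 84.3 ± 31.0 in pgWAT, adjusted p = 0.0665) to 0.37 (Smad1, adjusted p = 0.14), and Smad4 was not called either (0.39 ± 0.27, adjusted p = 0.271). The inhibitory Smad7, itself induced by TGF-beta, rose by 1.03 ± 0.30 (adjusted p = 0.00704), with 7.18 ± 5.34 CPM in iWAT (SD, n = 19) and 15.1 ± 5.96 CPM in pgWAT (SD, n = 10), and all 10 pgWAT libraries lay above the iWAT mean. Its levels were low, at 175 counts over all libraries, and in 4 of the 29 fits that each left out 1 library it did not pass the filter. Those fits left out pgWAT female 4, 5 or 6 or iWAT male 10. Smad7 was thus tested mainly because of pgWAT libraries, so the count of 10 is no separate support for the difference.

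The 3 tested ID genes, whose products bind and inhibit basic helix-loop-helix factors, did not move as a group. Id3 was called higher in pgWAT (log2 fold change 0.35 ± 0.13, adjusted p = 0.0303), and Id1 (-0.24 ± 0.28, adjusted p = 0.531) and Id2 (-0.44 ± 0.19, adjusted p = 0.0679) were not called. Id1 was called in both single columns with opposite signs, higher in pgWAT female than in iWAT female in column 8 (48.4, 48.9 and 55.3 CPM against 12.5, 16.1 and 24.9 CPM; 1.47 ± 0.29, adjusted p = 0.00123) and lower in pgWAT male than in iWAT male in column 9 (8.64 and 34.3 CPM against 66.5, 68.7 and 73.6 CPM; -1.56 ± 0.36, adjusted p = 0.00497). Both pgWAT male libraries of column 9 went against their label and carried Xist counts. The column 9 contrast therefore also set Xist-carrying pgWAT against Y-carrying iWAT libraries. The Id3 call also depended on which libraries were compared. Within plate column 8 it was higher in pgWAT female than in iWAT female (1.60 ± 0.15, adjusted p = 1.14e-07), within column 9 it was lower in pgWAT male than in iWAT male (-0.425 ± 0.16, adjusted p = 0.0655), and leaving out any 1 of 6 libraries (pgWAT male 2 or 4, pgWAT female 4 or 5, iWAT female 6 or 7) gave adjusted p values up to 0.0713.

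Whether the depot differences held within single columns of the library plate was tested in columns 8 and 9, the columns with at least 2 libraries of one labelled sex from each depot. Columns 7 and 10 also held both depots, but with 1 pgWAT and 1 iWAT library respectively, and were not used for this. In column 8, 3 pgWAT female were compared with 3 iWAT female libraries, all meeting their sex label, and in column 9, 2 pgWAT male libraries, both of which went against their label, with 3 iWAT male libraries. The single pgWAT male library of column 8 and the single iWAT female library of column 9 entered those fits with a mean of their own and no part in the contrast. Over all genes tested, 14% were called in column 8 and 23.2% in column 9, beside 17 of 36 and 18 of 34 members. Of the 21 called members, 13 were called again in column 8 and 14 in column 9, and the direction was kept by 21 in column 8 and by 19 of the 20 tested in column 9 (the exception being Id3). Gdf6, Bmp6, Fstl1, Fstl3, Acvrl1, Tgfbr2, Tgfbr3, Eng, Ltbp1, Tgfbi and Grem1 were called in both columns. In column 9 the contrast set Xist-carrying pgWAT against Y-carrying iWAT libraries, so depot and sex cannot be told apart there. Gdf6 and Tgfbr2 were also called higher in iWAT female than in iWAT male. For Tgfbr2 and Inhba, the pgWAT libraries in both column contrasts were the high ones described above. Members called in a column and not over all libraries were Bmp4, Id1, Inhba and Ltbp4 in column 8 and Gdf10, Id1, Inhba and Smad3 in column 9.

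**Figure D4:**
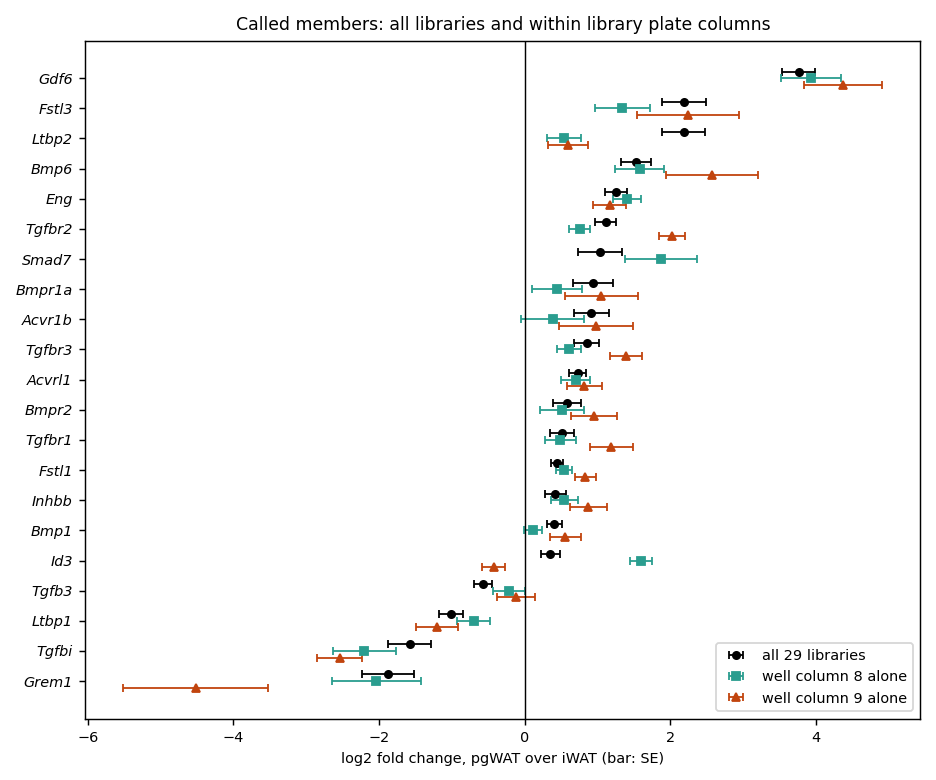
Log2 fold change of pgWAT over iWAT with SE for the 21 called members, from all 29 libraries (circles), plate column 8 alone (squares) and plate column 9 alone (triangles, no value for Smad7). Most members keep their side of 0, Ltbp2 and Tgfb3 shrink within the columns, and Id3 takes opposite signs.

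Other cell types changed with depot as well. The mesothelial markers Upk3b (0.0452 ± 0.197 CPM in iWAT and 40.6 ± 15.6 in pgWAT) and Wt1 (0.44 ± 0.742 and 22.3 ± 9.21 CPM) were near 0 in iWAT, and the 6 mesothelial markers summed to 1.96 to 98.7 CPM in iWAT and 59.0 to 189 CPM in pgWAT, with Lrrn4 at 0 counts in iWAT. Krt19, which epithelia also express, fell by 1.43. Of 5 tested macrophage markers 3 rose (Cd68 by 1.13, Lyz2 by 1.15 and Csf1r by 0.88), and the list summed to 614 to 2408 CPM in iWAT and 704 to 7757 CPM in pgWAT. The markers of endothelium, a cell type known to express Eng and Acvrl1, summed to 45.5 to 138 CPM in iWAT and 45.5 to 150 CPM in pgWAT, with Kdr and Tek called higher and Pecam1, Cdh5 and Emcn not called. Of the 6 fibroblast markers 5 rose, the smooth muscle genes Acta2 and Tagln rose among 3 tested, and 4 of 5 proliferation genes fell. The part of these cells in the members' differences was not tested.

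In the wider pathway, 73 further genes were followed, of which 36 could be tested, 17 rose and 3 fell in pgWAT (median log2 fold change 0.53). Of all tested genes, 20.1% were called higher and 17.9% lower in pgWAT, which is the background for the counts of each list. Among ligand-binding proteins, Bmper, which binds BMPs outside the cell, rose by 3.32 ± 0.23 (17.5 ± 5.53 CPM in iWAT, 181 ± 103 CPM in pgWAT, adjusted p = 1.09e-13) and Crim1 by 1.40 ± 0.19 (adjusted p = 3.57e-07). Of 8 tested genes for latent TGF-beta activation and microfibrils, 5 rose and 0 fell, among them Thbs1, a known activator of latent TGF-beta (1.18 ± 0.19, adjusted p = 9.49e-06), and Emilin1, which limits TGF-beta processing (1.14 ± 0.12, adjusted p = 3.59e-09). Lrrc32, the surface anchor of latent TGF-beta, was among the 5. Of 9 tested intracellular regulators, 2 rose, a share close to that of all tested genes. These were the feedback regulators Pmepa1 (1.06 ± 0.19, adjusted p = 2.67e-05) and Skil (0.72 ± 0.24, adjusted p = 0.0149). The co-receptor Rgmb fell by 1.01 ± 0.21 (adjusted p = 0.000305).

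Of 10 genes known to respond to TGF-beta, 7 rose and 1 fell in pgWAT (20.1% and 17.9% of all tested genes), with a median log2 fold change of 1.00. Postn rose by 1.79 ± 0.20 (183 ± 132 CPM in iWAT and 502 ± 245 in pgWAT, adjusted p = 5.76e-09), and the cell cycle inhibitor Cdkn2b fell by 1.60 ± 0.36 (adjusted p = 0.000549). Several genes of this list are also markers of fibroblasts (Col1a1, Fn1) and smooth muscle (Acta2, Tagln). Of 4 BMP response genes only Atoh8 could be tested, and it was not called (0.52).

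The study also asked whether sex differences persist in culture. Between iWAT male and iWAT female, 7 of 34 members (20.6%) were called, against 3.22% of all tested genes, 2 higher and 5 lower in males. Id3 and Id1 were higher in iWAT male, and Inhba, Gdf6, Ltbp2, Bmp1 and Tgfbr2 were higher in iWAT female.

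Id3 ranged from 209 to 580 CPM in iWAT male (median 451) and from 109 to 237 CPM in iWAT female (median 203). All but 1 male library lay above all female libraries, and the log2 fold change of male over female was 1.21 ± 0.15 (adjusted p = 4.12e-06). Within plate column 7 it was 0.82 ± 0.20 (adjusted p = 0.028). Id1 ranged from 11.5 to 79.2 CPM in iWAT male (median 54.7) and from 12.5 to 44.3 CPM in iWAT female (median 22.9), with a log2 fold change of 1.10 ± 0.32 (adjusted p = 0.048). The Id1 call was at the edge, as leaving out any of 15 of the 29 libraries ended it (adjusted p up to 0.0983). Id2 was not called (0.52 ± 0.21, adjusted p = 0.191).

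**Figure D5:**
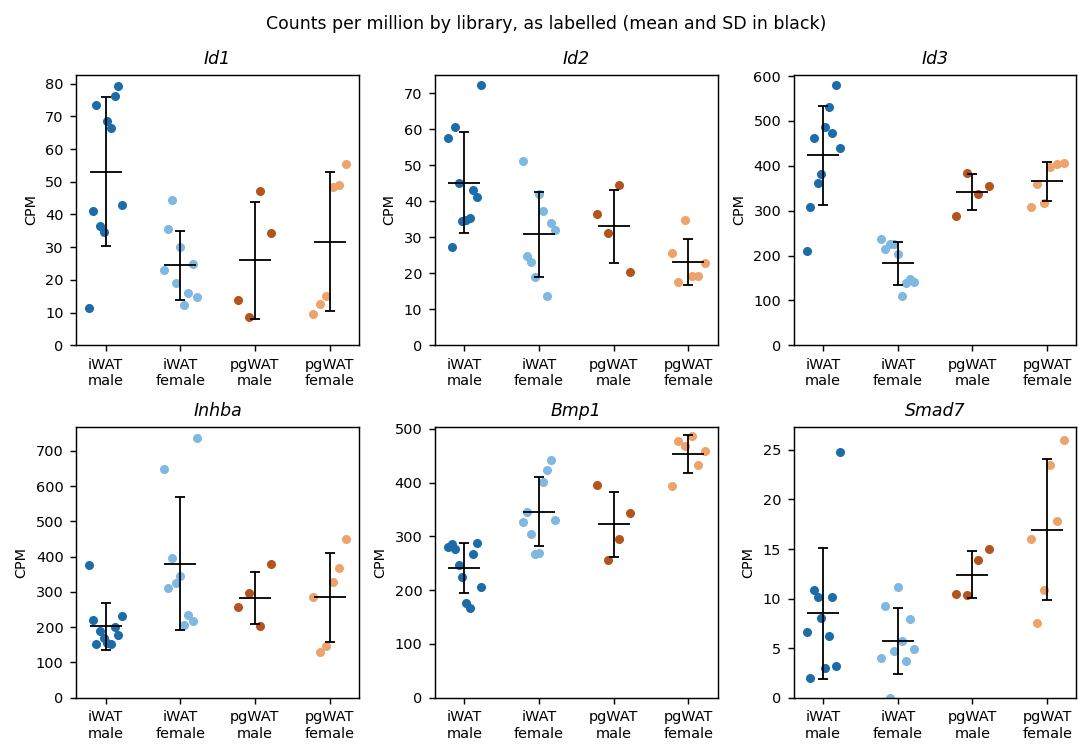
CPM of the 3 tested ID genes and of Inhba, Bmp1 and Smad7, 1 point per library in the 4 groups as labelled, with group mean and SD in black. Id3 in iWAT female (109 to 237 CPM) lies below both pgWAT groups (288 to 407 CPM), while Inhba and Bmp1 are higher in iWAT female than in iWAT male.

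Inhba ranged from 151 to 377 CPM in iWAT male (median 183) and from 205 to 738 CPM in iWAT female (median 325), a log2 fold change of -0.90 ± 0.24 (adjusted p = 0.0246) that was -0.87 ± 0.21 within column 7 (adjusted p = 0.0272). The call was lost without iWAT female 1 (adjusted p = 0.0593) or 9 (adjusted p = 0.0693), the 2 highest libraries. Bmp1 averaged 241 ± 46.2 CPM (SD) over the 10 iWAT male libraries and 346 ± 64.1 CPM over the 9 iWAT female ones (-0.52 ± 0.12, adjusted p = 0.0093), and no left-out library ended the call.

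Gdf6 and Ltbp2, the ligand and matrix genes with the largest rises in pgWAT, were also higher in iWAT female than in iWAT male. Gdf6 was at 1.39 ± 1.48 CPM (SD, n = 10) in males and 6 ± 2.84 CPM (SD, n = 9) in females (-1.62 ± 0.41, adjusted p = 0.0211), at the level of a few counts per library. Ltbp2 ranged from 19.0 to 43.3 CPM in males and from 35.1 to 126 CPM in females (-1.36 ± 0.40, adjusted p = 0.0481), and its call was lost on leaving out any of 17 libraries (adjusted p up to 0.0883). Tgfbr2 ranged from 58.7 to 111 CPM in males (median 87.4) and from 97.0 to 185 CPM in females (median 139; -0.69 ± 0.18, adjusted p = 0.0285). Leaving out any of 6 iWAT libraries (male 6 or 10, female 4, 6, 7 or 8) ended the Tgfbr2 call, with adjusted p up to 0.0727. With limma voom, Id3 and Bmp1 were called again and the calls of Id1, Inhba, Gdf6, Ltbp2 and Tgfbr2 were lost.

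Library plate column 7 held 7 iWAT male and 4 iWAT female libraries, and there the sex contrast was called for 3.05% of all tested genes and for 4 of 26 members, namely Id3, Inhba, Ltbp2 (-1.55 ± 0.20, adjusted p = 6.95e-05) and in addition Ltbp4 (-1.82 ± 0.30, adjusted p = 0.00146). In that column Bmp1 (-0.25 ± 0.14, adjusted p = 0.364), Tgfbr2 (-0.48 ± 0.16, adjusted p = 0.1) and Id1 (0.68 ± 0.34, adjusted p = 0.321) were not called, and Gdf6 did not pass the filter. Ltbp4, an extracellular matrix protein of elastic fibres, averaged 9.17 ± 3.43 CPM (SD) in iWAT male and 18.6 ± 9.26 CPM in iWAT female, and over all libraries it was not called (-0.99 ± 0.34, adjusted p = 0.107).

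Beside these sex differences, cell type markers differed too. In iWAT male (n = 10) the epithelial keratins Krt8 and Krt18 reached 0.216 ± 0.684 and 1.43 ± 2.03 CPM (SD), against 143 ± 228 and 110 ± 187 CPM in iWAT female (n = 9), and the 4 epithelial markers summed to 0 to 8.31 CPM and 31.7 to 1409 CPM, with Epcam at 0 counts in iWAT male. Macrophage markers summed to 1414 to 2408 CPM in iWAT male and 614 to 1091 CPM in iWAT female, without overlap. Smooth muscle markers summed to 572 to 822 CPM in males and 819 to 3573 CPM in females. Their part in the members' differences was not tested.

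Of the wider pathway, 1 of 36 tested genes was higher and 7 were lower in iWAT male. Over all 8853 tested genes 3.22% were called, 96 higher and 189 lower in iWAT male. The BMP response gene Atoh8 was higher (14.8 ± 5.47 CPM in males, SD, n = 10, and 4.82 ± 1.84 in females, SD, n = 9; 1.56 ± 0.36, adjusted p = 0.00906). Among 10 TGF-beta response genes, 4 were lower in males and 0 higher, with Postn (-2.10 ± 0.25, adjusted p = 1.21e-06) and Tagln (-1.23 ± 0.23, adjusted p = 0.00127) showing the largest differences, followed by Col1a1 (-1.23) and Acta2 (-1.01). The intracellular regulators Pmepa1 (-0.98 ± 0.24, adjusted p = 0.0139) and Ski (-0.64 ± 0.14, adjusted p = 0.00863) and the co-receptor Rgma (-1.27 ± 0.29, adjusted p = 0.00883) were lower in males as well.

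Between the labelled sexes of pgWAT, edgeR called 0 of 34 members, DESeq2 0 and limma voom 0. At an unadjusted p under 0.05 edgeR listed 2, Bmp1 and Ltbp3, and 0.0113% of all tested genes were called. Since 4 of the 10 pgWAT libraries went against their label and 1 carried both signals, this contrast compares labels. Without those 5 libraries 4 of 35 members tested were called between 2 male and 3 female libraries, in a fit that called 5.63% of all genes: Ltbp2 was higher in pgWAT male (2.42 ± 0.32, adjusted p = 2.98e-06), and Tgfbr2 (-1.37 ± 0.27, adjusted p = 0.000955), Tgfbr3 (-1.21 ± 0.37, adjusted p = 0.045) and Bmp4 (-3.09 ± 0.89, adjusted p = 0.0331) were lower.

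The sex difference itself was called as differing between depots for 1 of 34 members (2.94%, against 0.181% of all tested genes), namely Id3. In pgWAT its levels were 288, 337, 354 and 384 CPM in the 4 labelled male libraries and ranged from 307 to 407 CPM in the 6 labelled female libraries (median 378), so that the labelled sexes overlapped there. The difference between the 2 sex contrasts was -1.31 ± 0.27 (adjusted p = 0.0294), and without the 5 pgWAT libraries that did not meet their label it was -1.59 ± 0.35 (adjusted p = 0.00598). Leaving out pgWAT male 2 or 4, pgWAT female 6 or iWAT female 7 ended the call (adjusted p between 0.0504 and 0.0569). Among the TGF-beta response genes Postn was called in this test as well, with the opposite sign (2.49 ± 0.40, adjusted p = 0.00417).

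The 17 members that did not pass the filter were Tgfb1, Tgfb2, Bmp2, Bmp3, Bmp4, Bmp5, Bmp7, Gdf5, Gdf10, Gdf15, Nog, Chrdl1, Bmpr1b, Acvr2a, Acvr2b, Smad6 and Id4. The BMP antagonist Nog had 0 counts in every library, and the cartilage ligand Gdf5 had 1. Acvr2a, the activin type II receptor with the most counts, gave 94 in 26 libraries.

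Bmp4, a ligand that commits progenitors to the adipocyte lineage, gave 42 counts in the 19 iWAT libraries and 95 in the 10 pgWAT libraries. It ranged from 0 to 12.5 CPM in iWAT (median 2.11), was at 3.47, 4.17, 12.1 and 12.8 CPM in the 4 pgWAT male libraries, and ranged from 9.60 to 39.0 CPM in pgWAT female (median 20.2). Without a filter it was called higher in pgWAT (2.16 ± 0.39, adjusted p = 3.56e-06), as was Gdf10, a TGF-beta superfamily ligand (2.15 ± 0.44, adjusted p = 4.55e-05), with 2.45 ± 2.29 CPM in iWAT (SD, n = 19) and 10.7 ± 8.48 CPM in pgWAT (SD, n = 10). The BMP antagonist Chrdl1 had 12 counts in 4 iWAT male libraries and 0 in iWAT female, and was called without a filter (adjusted p = 0.0177).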

How the data were processed

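Libraries were made by the Smart-seq3 protocol from cultures of 29 wells. The authors trimmed adapters with NGmerge, quantified transcripts with Salmon 1.9.0 against Gencode vM32 on GRCm39, counted UMI and other reads together, and dropped libraries in which few genes were seen. The deposited values are estimated counts per gene, not normalized, with 96.5% of all values and 85.1% of those above 0 exactly whole. The rest were rounded. The strand setting was not given in the sources used here.

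Libraries were grouped by the depot and sex of their labels. The main test was the quasi-likelihood F test of edgeR 4.0.16 (R 4.3.3), two-sided, with 1 mean per group, TMM factors (0.949 to 1.06) and filterByExpr over the 4 groups. Called means a Benjamini-Hochberg FDR under 0.05 over 8853 genes, with no fold limit. Contrasts were pgWAT minus iWAT with labelled sexes weighted equally, male minus female in each depot, and their difference. SEs were derived from the F statistic. Group values are means of CPM on TMM-scaled totals, and levels between genes are CPM per kilobase of the union of exons in Gencode vM21. Promoter windows were read from RefSeq (GRCm38.p6). Alternatives used DESeq2 1.42.0, limma 3.58.1, other scaling or filters, the library plate column of each title, and left-out libraries.

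The members and gene lists were chosen with earlier results of these data known. Members called between depots were described by role, the 10 with the largest change and an average log2 CPM of at least 4 in full, and of each further list the called genes with the largest change. A few others were named after their values were seen.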

Additional observations from a re-analysis of the deposited data

Results flagged for a closer look

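Within groups of 4 to 10 libraries, the highest or lowest value of the 23 members called in any contrast was compared with the nearest value of the rest (Dixon's criterion at 95%). Of 92 groups tested, 6 stood out, each by its highest library, where chance gives about 1 in 20. In iWAT male these were Inhba at 377 CPM in library 1 (other libraries 151 to 230 CPM), Gdf6 at 4.61 CPM in library 5 (0 to 2.16 CPM), Acvrl1 at 121 CPM in library 4 (47.4 to 82.2 CPM) and Smad7 at 24.8 CPM in library 10 (1.96 to 10.8 CPM). In iWAT female, Fstl1 reached 1235 CPM in library 5 (other libraries 911 to 1052 CPM), and in pgWAT female, Bmpr2 reached 56.3 CPM in library 5 (17.5 to 30.4 CPM). The sex difference of Id3 differed between the depots by -1.31 on the log2 scale, by a test of that difference.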

How the results depend on the processing

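No paired analysis was possible because the labels carry no replicate numbers and do not tie libraries to experiments. Between depots the main counts were 17 members higher and 4 lower, and the alternatives gave 13 to 19 higher and 3 to 6 lower, while leaving out 1 library gave 14 to 20 higher and 4 to 6 lower. Of the members called in each contrast, the Id3 depot difference alone reversed, to -0.425 within plate column 9. Among members not called between depots, Id1 (-0.24) was called at 1.47 within column 8 and at -1.56 within column 9. In iWAT, 7 members were called between the sexes, 2 with limma voom, 4 within plate column 7, and 4 to 8 on leaving out 1 library. In pgWAT the count of 0 by labelled sex became 1 with plate column as a factor (Ltbp4) and 4 without the 5 libraries that did not meet their label, and stayed at 0 on leaving out 1 library. The 1 member whose sex difference differed between depots became 2 without a filter and 2 with plate column as a factor (Id3 and Ltbp2 in both), 3 without those 5 libraries (Id3, Ltbp2 and Bmp4), 0 with limma voom, and 0 to 1 on leaving out 1 library. The causes were not tested. Depth limits the 17 members that did not pass the filter.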
